A study of Mus musculus with 6 samples.

Results

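The calcium/calmodulin-dependent protein kinases (CaM kinases) were examined in granule cells of the dentate gyrus (DG) after Bcl11b/Ctip2 had been deleted in adult mice. The set was defined by name and holds 10 genes, Camk2a, Camk2b, Camk2d, Camk2g, Camk1, Camk1d, Camk1g, Camk4, Camkk1 and Camkk2. Of these, 9 were measured among 19938 genes tested, each with 1 probe set, and Camkk1 was not analysed here. The study hybridized RNA of 3 mutant and 3 control samples to 1 Affymetrix whole-transcript array each. Mutants were Bcl11b flox/flox mice that carried tetO-Cre and CaMKIIα-tTA. For the controls of this tet-off line, no source used here gives the genotype. Both groups received doxycycline in the drinking water through embryogenesis and until 2 months of age, and were killed 4 weeks after its removal. The granule cell layer was then cut from stained cryosections by laser capture microdissection. The transactivator was driven by the promoter of Camk2a, itself a gene of this set, which is active in excitatory neurons of the forebrain, so the line is specific to the forebrain and not to granule cells.

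CaM kinases are serine/threonine kinases that are switched on when calcium-loaded calmodulin binds to them. CaMKII is a large assembly of subunits from the genes Camk2a, Camk2b, Camk2d and Camk2g, can hold its activity by autophosphorylation, and is known for its role in long-term potentiation at hippocampal synapses. CaMKI and CaMKIV form a cascade instead: the upstream kinases CaMKK1 and CaMKK2 phosphorylate them, CaMKI acts mainly in the cytosol and CaMKIV mainly in the nucleus, where CREB is a known substrate.

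Bcl11b, the deleted gene, had log2 levels of 9.03, 8.68 and 8.82 in mutants, against 10.56, 10.40 and 10.30 in controls, which differ by -1.58 on the log2 scale (limma, standard error 0.099, adjusted p = 2.56e-05). No source used here says whether its probes lie in the deleted part. All levels are log2 values made by RMA, which gives the probe intensities of each array the same distribution before making 1 value per probe set. Array medians of these values lay between 6.29 and 6.36. A log2 change is the mutant mean minus the control mean, and a gene was called changed at an adjusted p under 0.05 over all genes tested. Each sample title carries a number of its own besides the replicate number, but what it marks is not stated. Separate animals per array are thus not stated, and p-values cover only the variation among these samples, which may be technical. Prox1, which defines granule cells, was at 11.60 in mutants and 11.65 in controls, the smallest change of the 9 granule cell markers. Of 6 mossy cell markers, Drd2, Csf2rb2, Ttn and Nmb had group means under the array medians. Calcrl was higher, with 7.39 in mutants and 6.99 in controls, and Calb2 was at 6.77 in mutants and 7.10 in controls, not called. The summed level of 9 granule cell markers was 14.34 to 14.38 in mutants and 14.63 to 14.66 in controls, with 1 marker higher and 3 lower. The higher one was Tdo2 (log2 change 1.13), and the lower ones were Trpc6 (-1.64), Calb1 (-0.97) and Dsp (-0.81). The summed level of 4 immature neuron markers, 3 of them higher, was 11.43 to 11.56 in mutants and 10.94 to 11.12 in controls. Their log2 changes ran from 0.06 (Igfbpl1) to 1.07 (Dcx). The sum of 7 astrocyte markers, 2 of them higher, was 12.97 to 13.12 in mutants and 12.62 to 12.83 in controls. That of 8 interneuron markers, 2 of them lower, was 11.94 to 12.02 in mutants and 12.06 to 12.32 in controls. The sums of CA1, CA2 or CA3, mossy cell, oligodendrocyte, microglia and endothelial markers overlapped between the groups. Such sums weigh bright genes most, and single markers in these lists were called. Of 7 CA2 or CA3 markers, 1 was higher and 3 were lower, and of 4 CA1 markers, 1 was higher and 1 lower. In addition, 1 of 7 microglia markers was lower and 1 of 5 endothelial markers higher, while no oligodendrocyte marker was called. For comparison, 15.2% of all genes tested were called (9.23% higher, 5.93% lower), and 25.0% of those not below the median level. Whether any marker list exceeded these rates was not tested. The part of these marker differences in the kinase results was not tested, and in such bulk samples fewer cells of a type and less RNA per cell cannot be told apart.

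Upstream sequence was examined for the kinases with a promoter entry in RefSeq (build GRCm38.p6). The study names the letters TGGGC as a putative binding site of Bcl11b/Ctip2. TGGGC and its reverse complement GCCCA were therefore searched in the 250 bases before each start, over 8 promoters of 7 of the genes. Camk2a, Camk2g and Camk4 had no entry. The sequences of 3 genes that changed in mutants are shown, 1 that fell and 2 that rose, with matches in capitals. The windows are chr3:126596701-126596950 (plus strand) for Camk2d, chr6:113343923-113344172 (minus strand) for Camk1 and chr5:122779411-122779660 (minus strand) for Camkk2.
Camk2d: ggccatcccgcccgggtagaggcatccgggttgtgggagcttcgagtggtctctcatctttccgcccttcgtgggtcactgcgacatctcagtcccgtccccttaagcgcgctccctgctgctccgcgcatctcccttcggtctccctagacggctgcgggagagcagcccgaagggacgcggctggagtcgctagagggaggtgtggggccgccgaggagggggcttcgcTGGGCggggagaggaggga
Camk1: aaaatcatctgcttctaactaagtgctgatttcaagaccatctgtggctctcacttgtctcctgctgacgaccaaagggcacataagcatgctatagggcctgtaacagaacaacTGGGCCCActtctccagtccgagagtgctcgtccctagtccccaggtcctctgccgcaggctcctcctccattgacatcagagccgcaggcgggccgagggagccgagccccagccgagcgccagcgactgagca
Camkk2: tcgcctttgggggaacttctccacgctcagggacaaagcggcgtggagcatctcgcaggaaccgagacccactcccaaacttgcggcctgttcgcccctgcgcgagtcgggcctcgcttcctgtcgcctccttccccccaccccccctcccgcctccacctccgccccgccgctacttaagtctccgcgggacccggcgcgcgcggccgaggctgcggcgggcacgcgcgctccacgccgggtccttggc
The Camk2d window holds 1 match, which begins at -19 relative to the start. The Camk1 window holds both forms, which overlap in a single run of letters that begins at -135, and the Camkk2 window holds none. A match was present in 6 of the 8 promoters, including those of Camk1d, Camk1g and Camkk1, and was absent from that of Camk2b. Of all 32851 promoters in the table, 50.7% held a match in the same window. Among promoters of genes tested, the share was 61.7% for genes called higher, 57.5% for genes called lower and 53.2% for genes not called. A match is a run of letters only and was not measured as a binding site. In the study, chromatin immunoprecipitation of Bcl11b/Ctip2 also enriched a Sema5B promoter region that lacks TGGGC.

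In mutant granule cells, 1 CaMKII gene, Camk2d, was lower by 2.72-fold, while 3 genes of the CaMKK to CaMKI and CaMKIV cascade, Camkk2, Camk4 and Camk1, were higher by 1.46-fold to 2.04-fold. The main forebrain CaMKII genes Camk2a and Camk2b and the third, Camk2g, did not pass the test, nor did Camk1d and Camk1g. Of 9 measured kinases, 4 were thus called changed, against 15.2% of all genes tested and 25.0% of genes at or above the median level. At or above that level lay 8 of the 9 kinases. The 3 higher genes compare with 9.23% of all genes called higher, and the 1 lower gene with 5.93% called lower. The median change over the 9 genes was 0.08, against -0.0027 over all genes tested. An unadjusted p under 0.05 was found for 5 of the 9 genes, against 27.2% of all genes. The groups did not overlap for the same 5 genes, against 31.6% of all genes. In 4 of them the mutants lay above the controls (17.0% of all genes) and in 1 below (14.6%). For each of these 5 the exact two-sided permutation test gave p = 0.1, the smallest p that 3 arrays against 3 allow.

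**Figure D1:**
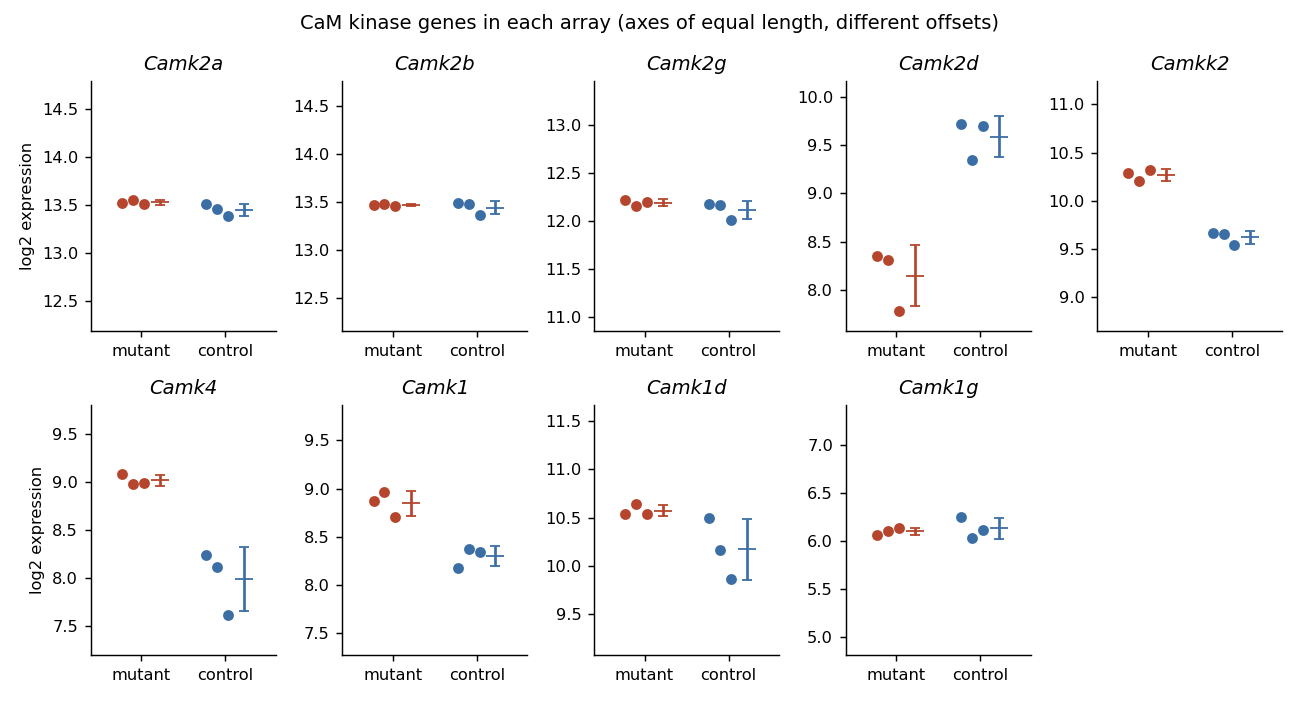
Log2 expression of 9 CaM kinase genes in each array on the vertical axis, with mutant arrays on the left and control arrays on the right of each panel (replicates 1 to 3 from left to right). Dots are arrays, lines with bars give mean and SD (n = 3 per group), and all vertical axes span the same length at different offsets. Camk2d has its highest mutant array below its lowest control array, while Camkk2, Camk4, Camk1 and Camk1d have their lowest mutant array above their highest control array.

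Camk2d (probe set 10495896), which encodes the delta subunit of CaMKII, had log2 levels of 8.35, 8.30 and 7.78 in mutants, against 9.73, 9.35 and 9.70 in controls. The highest mutant array lay 0.997 below the lowest control array, and mutant 3 was the lowest of all. The level was 8.15 ± 0.31 (SD, n = 3) in mutants and 9.59 ± 0.21 (SD, n = 3) in controls. The log2 change was -1.45 (limma, standard error 0.16, 95% interval -1.80 to -1.09, adjusted p = 4.33e-04), the 38th largest decrease of the 19938 genes. Without mutant 3 the change was -1.27. Camk2d also had one of the widest spreads within groups, above that of 98.9% of genes.

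The alpha subunit gene Camk2a (probe set 10456021), whose product is the most studied form of CaMKII in synaptic plasticity, had log2 levels of 13.52, 13.55 and 13.51 in mutants, against 13.51, 13.46 and 13.38 in controls. The groups overlapped, if only through mutant 3 and control 1, which differed by 0.001. The log2 change of 0.08 (standard error 0.055) did not pass the test (adjusted p = 0.439 from limma), with a 95% interval of -0.05 to 0.20. The beta subunit gene Camk2b (probe set 10384064), whose product binds actin, had 13.47, 13.48 and 13.46 in mutants, against 13.49, 13.48 and 13.37 in controls. The mutant arrays lay between the lowest and the highest control array, and the log2 change of 0.03 did not pass (adjusted p = 0.803 from limma), with a 95% interval of -0.09 to 0.15. The levels of Camk2a and Camk2b are near the upper end of the scale, where the highest value of any gene was 14.41. The gamma subunit gene Camk2g (probe set 10417972) had 12.22, 12.15 and 12.20 in mutants, against 12.18, 12.16 and 12.01 in controls. Its groups overlapped, and the log2 change of 0.07 did not pass (adjusted p = 0.518 from limma), with a 95% interval of -0.07 to 0.21. These 3 intervals leave out a decrease as large as that of Camk2d, and they do not show that the genes were unchanged.

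Array by array, the difference between Camk2d and each of the other CaMKII genes separated mutants from controls. Relative to the control mean, Camk2d minus Camk2a was -1.31, -1.39 and -1.86 in mutants, against 0.08, -0.26 and 0.18 in controls. The changes of Camk2d and the other genes differed by -1.52 for Camk2a, -1.48 for Camk2b and -1.52 for Camk2g. Each of these 3 comparisons had p = 0.1, the smallest p the design allows, in an exact permutation test (0.183 adjusted over 11 pairs). Camk2d was the 1 CaMKII gene that was called, and the others varied little between arrays. The comparisons therefore mostly repeat the separation of Camk2d itself and add no separate support.

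Camkk2 (probe set 10533529), the upstream kinase that activates CaMKI, CaMKIV and the energy sensor AMPK, had log2 levels of 10.29, 10.20 and 10.31 in mutants, against 9.67, 9.65 and 9.54 in controls. All mutant arrays lay at least 0.53 above the highest control. The level was 10.27 ± 0.059 (SD, n = 3) in mutants and 9.62 ± 0.068 (SD, n = 3) in controls, and the log2 change was 0.65 (limma, standard error 0.060, adjusted p = 1.78e-04). It had the smallest p of the 9 kinases and the narrowest spread of the 4 that changed.

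Camk4 (probe set 10454632), the nuclear kinase of the cascade, had log2 levels of 9.09, 8.98 and 8.99 in mutants, against 8.24, 8.11 and 7.62 in controls. The mutant arrays lay close together, whereas control 3 was lower than the other controls. With 9.02 ± 0.061 (SD, n = 3) in mutants and 7.99 ± 0.33 (SD, n = 3) in controls, the log2 change was 1.03 (standard error 0.14, adjusted p = 0.00148 from limma), the largest increase among the kinases. Without control 3 it was 0.84. Under the methods' test (the study's general group test, adjusted by Benjamini-Hochberg over all genes) Camk4 did not pass (adjusted p = 0.0719).

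Camk1 (probe set 10546891), the alpha form of CaMKI, had log2 levels of 8.87, 8.97 and 8.70 in mutants, against 8.18, 8.37 and 8.35 in controls. The lowest mutant array, mutant 3, was 0.33 above the highest control array. The log2 change was 0.55 (standard error 0.082, adjusted p = 0.00243 from limma), and with the methods' test after adjustment it did not pass (adjusted p = 0.0659). Camk1d (probe set 10479852), the delta form, had 10.54, 10.64 and 10.54 in mutants, against 10.50, 10.16 and 9.86 in controls. The groups did not overlap, but control 1 reached to within 0.04 of the lowest mutant and the controls spread over 0.63. The log2 change of 0.40 (limma, standard error 0.13, unadjusted 95% interval 0.09 to 0.71, adjusted p = 0.0857) did not pass the test. Without control 1 it was 0.56 and passed (adjusted p = 0.00178 from limma), and without control 3 it was 0.25 and did not (adjusted p = 0.164 from limma). The gamma form Camk1g (probe set 10361250) had 6.06, 6.11 and 6.14 in mutants, against 6.25, 6.04 and 6.11 in controls. Its groups overlapped, and the log2 change of -0.03 did not pass (adjusted p = 0.816 from limma), with a 95% interval of -0.18 to 0.12. Its levels were below the median of each array, so that signal over background was not established.

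In order of change, the kinases ran from Camk4, Camkk2, Camk1 and Camk1d through Camk2a, Camk2g, Camk2b and Camk1g to Camk2d. The differences between neighbours in this order separated the mutant from the control arrays for Camk4 and Camkk2 (0.38), Camk1d and Camk2a (0.32) and Camk1g and Camk2d (1.41). For the other 5 neighbouring pairs the groups overlapped, with differences of 0.0023 to 0.15. These pairs were taken from the observed order, and with a smallest possible p of 0.1 none of the 11 could pass.

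**Figure D2:**
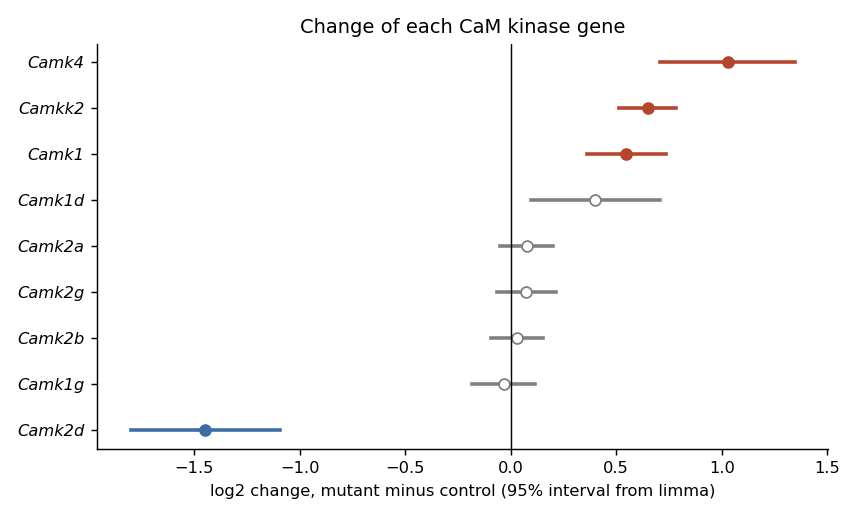
Log2 change of each measured CaM kinase gene on the horizontal axis (mutant minus control, n = 3 per group), ordered by size, with lines for the 95% interval from limma. Filled red points passed the test as higher, the filled blue point as lower, and open grey points did not pass. The intervals, which are not adjusted for the number of genes, lie above 0 for Camk4, Camkk2 and Camk1. That of Camk1d also lies above 0, although Camk1d did not pass after adjustment. The interval of Camk2d lies between -1.80 and -1.09, whereas those of the other CaMKII genes include 0.

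Genes that act around the kinases were examined in 6 lists written from general knowledge. Among 70 measured genes, 14 rose and 7 fell in mutants, 49 were not called, and the median change was 0.06. This is 30.0% changed, against 15.2% of all genes tested and 25.0% of genes at or above the median level. The methods' test, adjusted in the same way, called 8 of the 70, against 5.72% of all genes. It called 3 higher (3.48% of all genes), which were Camk2n2, Camk2n1 and Pnck, and 5 lower (2.24%), which were Ppm1f, Itpka, Pcp4, Ppp3r1 and Ppp3cb.

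Both genes for the small inhibitors that bind active CaMKII were higher in mutants. Camk2n2 had log2 levels of 9.33, 9.46 and 9.46 in mutants, against 8.07, 8.15 and 8.35 in controls, so that it rose by 1.23 on the log2 scale (limma, standard error 0.080, adjusted p = 3.09e-05). Camk2n1 had 12.99, 12.94 and 13.04 in mutants, against 12.62, 12.59 and 12.71 in controls, a log2 change of 0.35 (adjusted p = 0.00373 from limma). Of the phosphatases that remove the activating phosphate from CaM kinases, Ppm1f had 8.23, 8.08 and 8.28 in mutants, against 8.73, 8.67 and 8.60 in controls, and fell by 0.47 on the log2 scale (adjusted p = 0.00190 from limma). The groups did not overlap for any of these 3, as for 31.6% of all genes tested. The share called in this list of 4 genes was 75.0%, against 15.2% of all genes tested and 25.0% of genes at or above the median level. The related phosphatase Ppm1e had a log2 change of 0.22 and did not pass.

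Of 18 other kinases that calmodulin regulates or that are related to CaM kinases, 5 rose, 2 fell and 11 were not called, with a median change of 0.04. The share called was 38.9%, against 15.2% of all genes tested and 25.0% of genes at or above the median level. Pnck, the beta form of CaMKI, had log2 levels of 11.68, 11.66 and 11.79 in mutants, against 10.20, 10.50 and 10.63 in controls. Its log2 change of 1.27 (limma, standard error 0.10, adjusted p = 9.55e-05) was larger than the increase of any measured CaM kinase in the set. Itpka, a calmodulin-stimulated kinase of inositol trisphosphate that also binds actin in dendritic spines, had 9.81, 9.61 and 9.68 in mutants, against 10.63, 10.68 and 10.67 in controls. It fell by 0.96 on the log2 scale (adjusted p = 3.33e-05 from limma), while its relative Itpkb rose by 0.74. The doublecortin-like kinase Dclk3 rose by 0.87 (adjusted p = 9.52e-04 from limma). Also called were Dapk1, a calmodulin-dependent kinase linked to cell death, with 0.40, and Eef2k, which slows translation elongation, with 0.29. The pseudokinase Camkv had a log2 change of -0.28 and also passed as lower.

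Of 18 genes listed as targets of CaMKK, CaMKI and CaMKIV or partners of such targets, 5 were higher and none was lower with limma. The other 13 did not pass. The share called was 27.8%, against 15.2% of all genes tested and 25.0% of genes at or above the median level. The 2 genes with a change below 0, Prkaa1 (-0.15) and Crem (-0.17), had an unadjusted p under 0.05 but did not pass after adjustment with limma or with the methods' test. The median change was 0.15, and 16 of the 18 changes were above 0, against 49.0% of all genes tested. Mef2c, a transcription factor that class II histone deacetylases hold in check, had log2 levels of 12.37, 12.28 and 12.35 in mutants, against 11.97, 11.91 and 11.72 in controls (log2 change 0.46, adjusted p = 0.00320 from limma). Crtc3, a coactivator of CREB, had 9.02, 9.01 and 8.98 in mutants, against 8.60, 8.41 and 8.12 in controls (log2 change 0.63, adjusted p = 0.00470 from limma). In both genes the lowest mutant array was above the highest control array, as in 17.0% of all genes. The deacetylases Hdac5 and Hdac4, which CaM kinases move out of the nucleus, rose by 0.32 and 0.33, and the AMPK subunit Prkaa2 rose by 0.26. Creb1 itself had a log2 change of 0.04 and did not pass. With the methods' test after adjustment, none of the 5 passed (adjusted p = 0.0627 for Mef2c, the lowest of them).

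Among genes listed as synaptic partners and substrates of CaMKII, changes in both directions were found. Of 14 genes, 2 rose, 2 fell and 10 were not called, with a median change of 0.02. The share called was 28.6%, against 15.2% of all genes tested and 25.0% of genes at or above the median level. The actinin Actn2, which links CaMKII and NMDA receptors to actin, had log2 levels of 8.32, 8.27 and 8.42 in mutants, against 8.81, 8.80 and 8.62 in controls (log2 change -0.41, adjusted p = 0.00509 from limma). The NMDA receptor subunit Grin2a fell by 0.33 on the log2 scale (adjusted p = 0.0195 from limma), whereas Grin2b, the subunit that binds CaMKII most tightly, had a log2 change of 0.18 and did not pass. The vesicle protein gene Syn1, whose product CaMKII phosphorylates, rose by 0.23, and the related Syn2 rose by 0.22. The AMPA receptor subunit Gria1 had a log2 change of -0.02. None of the 4 called genes passed the methods' test after adjustment (adjusted p = 0.0708 to 0.131).

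The calmodulin genes Calm2 and Calm3 had log2 changes of 0.02 and 0.09 and did not pass. Of 7 genes of calmodulin and its buffers, 14.3% were called, against 15.2% of all genes tested and 25.0% of those not below the median level. The 1 gene called was lower, as were 5.93% of all genes. This was Pcp4, which speeds the exchange of calcium on calmodulin, with log2 levels of 12.78, 12.80 and 12.81 in mutants, against 13.08, 13.08 and 13.12 in controls (log2 change -0.30, adjusted p = 0.00384 from limma). Nrgn, which holds calmodulin at low calcium, had 12.86, 12.87 and 12.85 in mutants, against 13.02, 13.04 and 12.96 in controls, and did not pass (log2 change -0.15, adjusted p = 0.0956 from limma). Of 9 genes of calcineurin, the calmodulin-dependent phosphatase, and its regulators, 1 was lower and 8 were not called. That is 11.1% called, against 15.2% of all genes tested (5.93% lower) and 25.0% of those not below the median level. Of the 9 changes, 8 were below 0, against 51.0% of all genes, the smallest in size being that of Rcan1 (-0.010). In 4 genes the mutants lay below the controls without overlap, against 14.6%, and in 1, Cabin1, above them, against 17.0%. Among the 4 was Ppp3r2, with means of 4.36 in mutants and 4.45 in controls. These lay under the array medians, so that its signal over background was not established. The regulatory subunit Ppp3r1 had 12.04, 11.95 and 12.04 in mutants, against 12.24, 12.28 and 12.35 in controls (log2 change -0.28, adjusted p = 0.0104 from limma). The catalytic subunits Ppp3ca and Ppp3cb had log2 changes of -0.15 and -0.09 and did not pass with limma, whereas Ppp3cb passed the methods' test (adjusted p = 0.0131). The calcineurin inhibitor Cabin1 was the 1 gene with a change above 0 (0.14) and did not pass (adjusted p = 0.253 from limma).

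**Figure D3:**
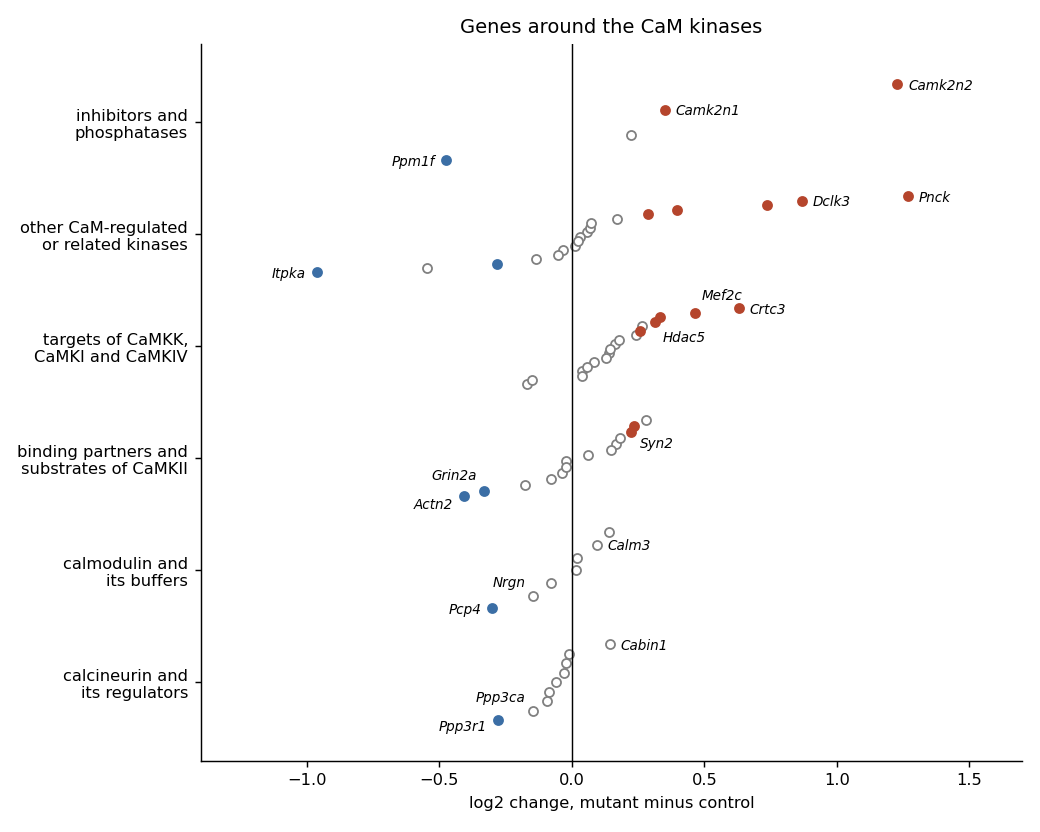
Log2 change (mutant minus control) of 70 genes around the CaM kinases on the horizontal axis, by list on the vertical axis. Each dot is a gene, filled red where it passed the test as higher, filled blue as lower and open where it did not pass, and the 3 genes with the smallest p of each list are named. Camk2n2 and Pnck lie farthest to the right, at 1.23 and 1.27, and Itpka farthest to the left, at -0.96.

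The genes whose pattern over the 6 arrays was most like that of Camkk2 were Slc35f4, 2610002M06Rik and Aacs, with a Pearson r of 0.998, 0.998 and 0.997 and log2 changes of 1.07, 0.74 and 0.87. The 6 arrays form 2 separate groups, and 1536 genes had an r above 0.9 with Camkk2, so this likeness describes genes that are also higher in mutants.

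**Figure D4:**
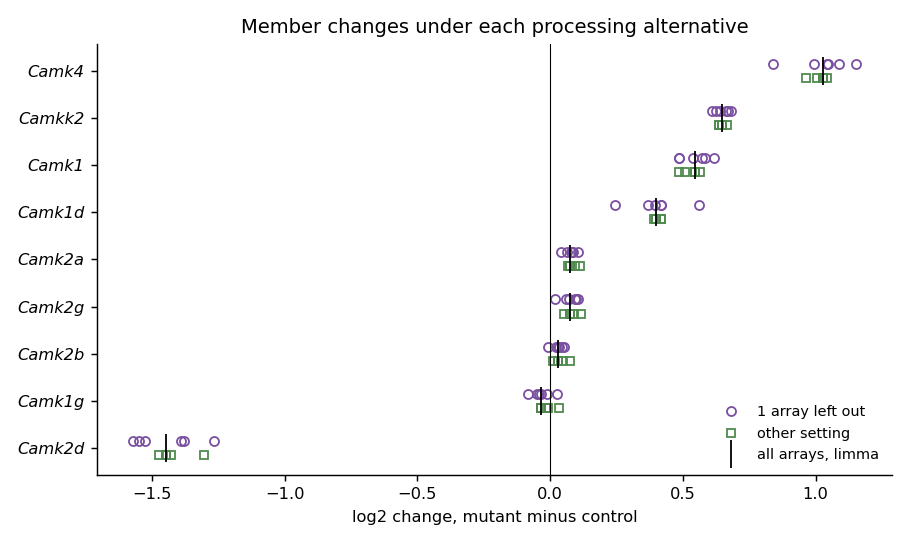
Log2 change of each CaM kinase gene on the horizontal axis under each way of processing. Black bars are the values with all arrays, purple circles leave out 1 array each, and green squares are the other settings. Camk2d stays between -1.57 and -1.27 and Camkk2 between 0.61 and 0.68, while Camk2b and Camk1g have values on both sides of 0.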

How the data were processed

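Granule cell layers of 3 mutant and 3 control samples were hybridized to Affymetrix whole-transcript arrays, 1 each. The authors deposited log2 values, made with RMA in Affymetrix Expression Console (background correction, quantile normalization, 1 value per probe set). Versions and settings were not given in the sources used. This normalization removes any shift that all genes share.

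The platform annotation paired 21789 of 35556 probe sets with 1 gene. Each gene was represented by its brightest probe set (mean of the 6 arrays), giving 19938 genes, with no filter on level. Of these, 19856 were found by Entrez number in RefSeq's table for GRCm38.p6, with no symbol differing. The groups were fitted without covariates by lmFit and eBayes (limma 3.58.1, R 4.3.3). P-values were adjusted by Benjamini-Hochberg across all genes tested. The script was first tested on simulated data. Per the study's methods, array analysis used BRB-ArrayTools, and groups were in general compared by Student's unpaired test (two-sided), which is called the methods' test. The number of arrays limits the precision, and no measure of detection was used.

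The kinases and gene lists were chosen with earlier results of these data known, and no list was tested as a set. All kinases are named, with the 3 genes of smallest p in each list and the 3 genes most like Camkk2. Itpkb, Dapk1, Eef2k, Camkv, Hdac4, Prkaa2, Creb1, Syn1, Grin2b, Gria1, Calm2, Prkaa1, Crem, Ppp3cb, Ppp3r2, Rcan1 and Ppm1e were named after their values were seen. Single cell type markers were named without a rule set beforehand. The summed level of a marker list is the log2 of its summed linear values. The 15 alternatives covered the test, variance model, array weights, a filter on dim genes, probe set choice, normalization, the replicate number as a block, and leaving out each array.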

Additional observations from a re-analysis of the deposited data

How the results depend on the processing

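The direction and the call of the 9 kinases were the same in 126 of 134 values under the alternatives. The 4 changed kinases kept their direction in all 15 alternatives, and Camk2d and Camkk2 also kept their call. For Camk2d the methods' test after adjustment was close to the threshold (adjusted p = 0.0490). The test, the variance model, the filter on dim genes, the probe set choice and the block left the log2 changes of these 4 kinases as they were. Their direction could therefore move only with array weights, another normalization or 1 array left out. The methods' test after Benjamini-Hochberg adjustment called 2 kinases (Camk2d and Camkk2), 8 pathway genes and 1141 genes in all. At an unadjusted p under 0.05 it called 4545 genes, and array weights gave 5527. With 1 array left out, the count ran from 1886 to 4487 over all genes, from 4 to 5 kinases and from 14 to 27 pathway genes, against 3023, 4 and 21 with all arrays. It was 1886, 1954 and 1949 genes without mutant 1, 2 and 3, and 1931 without control 2. Without control 1, and with array weights, Camk1d was also called (adjusted p = 0.00178 and 0.00496 from limma), and its log2 change ran from 0.25 to 0.56 with 1 array left out. Camk1g had a log2 change of 0.034 with array weights and of -0.082 to 0.026 with 1 array left out, and Camk2b of -0.0081 to 0.051 with 1 array left out. The cause was not tested.

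With the replicate number as a block, 5 kinases, 22 pathway genes and 3176 genes were called, Camk1d among them (adjusted p = 0.0460 from limma). Deviations from the group means correlated at 0.16, -0.033 and 0.12 between arrays of the same number. The best match carried the same number for 4 of 6 arrays. What the replicate numbers mark is not stated, and pairing was therefore not assumed.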
